A study of Mus musculus with 6 samples.

Results

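The genes described here make cholesterol and fatty acids, control their synthesis, or export and store sterol, and 38 of them were chosen by symbol from the 24421 genes of the count table. All 38 were listed there, and all 38 had enough reads to be tested. They comprised 7 genes of the mevalonate pathway, 11 genes of the steps from squalene to cholesterol, 5 genes of the sterol regulatory element binding proteins (SREBPs) and their regulators, 7 genes of the liver X receptors (LXRs) and of sterol efflux, transport and storage, and 8 genes of fatty acid synthesis. None of them passed the adjusted threshold between the genotypes, and the genotype differences of the 18 enzymes of cholesterol synthesis were within the spread of the cultures. Among genes with ample reads, those whose genotypes did not overlap and whose unadjusted p was lowest were *Insig2*, which brakes sterol synthesis and was at 0.568 times its wildtype level in *Nhe6*-knockout cells, and *Soat1*, which esterifies cholesterol for storage and was at 1.39 times its wildtype level.

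RNA was sequenced from endothelial cells grown from the stria vascularis, the vascular epithelium in the lateral wall of the cochlea. By the study's methods, the tissue taken for culture held the spiral ligament as well. The labels name 3 cultures as *Nhe6* KO and 3 as wildtype, give C57BL/6N as the strain background of both, and state that no treatment was applied. The mutant mice carried a disrupted *Nhe6* allele in every cell of the body and, by the study's methods, were backcrossed into C57bl6/j, which is another substrain than the label. Cells of both genotypes came from mice on postnatal day 10 to 12, with at least 6 animals pooled for a culture, were sorted by fluorescence after a first passage, and were grown in endothelial medium with 10% fetal bovine serum. The serum supplies lipoprotein cholesterol and fatty acids to both genotypes, and lipids were not measured. The replicates are 3 cultures per genotype, and p-values measure the spread between these cultures.

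Cells make cholesterol from acetyl-CoA through mevalonate and squalene. When membranes of the endoplasmic reticulum hold little sterol, SCAP carries SREBP-2 to the Golgi, where it is cleaved and then switches on nearly every enzyme of the pathway, and INSIG proteins retain SCAP when sterol is plentiful. LXRs sense oxysterols and switch on efflux through ABCA1 and ABCG1, and SREBP-1 with LXR drives fatty acid synthesis and desaturation.

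The 6 libraries held 25587097 to 29126232 reads on genes, so that counting error was small for 37 of the 38 genes, which averaged at least 100 normalized counts. A normalized count is the read count after TMM scaling to the average library. Wildtype replicate 2 was the outlying library of the principal component analysis (106 against -28.5 to -6.52 on the first component). It had 27170.2 normalized counts of *Col1a1*, a fibroblast collagen, against 207 and 213 in the other wildtype cultures. *Acta2*, smooth muscle actin, was at 16265 there, against 29.3 and 70.6. The collagens *Col1a2* and *Col3a1* were high in every culture, at 87361 to 186197 and 43417 to 59815. Of the 8 fibroblast markers, 2 were at their highest in wildtype replicate 2 and 5 at their lowest. The 8 summed to 224872 to 255540 normalized counts in *Nhe6*-knockout and 175786 to 284719 in wildtype cultures. *Nhe6*-knockout replicates 1 and 2 were much nearer to each other (chi-square per degree of freedom 5.04 over genes) than any other pair of replicates (94.8 to 421), although they differed by more than sampling noise. Of 13 endothelial markers, *Cldn5* had 0 reads in every culture and *Tie1* had 2 reads in all. *Pecam1* had at most 7.82 normalized counts, *Erg* 15.5, *Vwf* 23.2 and *Kdr* 70.1, and *Esam* ran from 2.84 to 237. *Cdh5*, *Tek*, *Flt1*, *Emcn*, *Eng* and *Cd34* were above 70.1 in every culture. The list summed to 16670 to 25754 in *Nhe6*-knockout and 15841 to 23455 in wildtype cultures. Most of that sum was *Emcn*, except in wildtype replicate 2. Within the list, *Cdh5*, which encodes VE-cadherin, was at 210.4 ± 27.9 (SD, n = 3) against 3726 ± 1362 (SD, n = 3) normalized counts, the *Nhe6*-knockout mean first (log2 fold change -4.15 ± 0.31 (SE), adjusted p = 0.0133 in edgeR's test), and *Flt1*, a receptor for vascular endothelial growth factor, was at 506 ± 111 (SD, n = 3) against 1748 ± 1239.7 (SD, n = 3) (adjusted p = 0.242). In such bulk samples, fewer cells of a type and less RNA per cell cannot be told apart.

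The promoters of the genes that the results turn on are shown first. SREBP-2 and its partner NF-Y act at promoters of cholesterol synthesis genes, and whether they act at those printed here was not measured. The RefSeq promoter table used here (GRCm38.p6) had a window from 250 bases before to 50 bases after the start for 30 of the 38 genes, 39 windows in all. *Sqle*, *Fdps*, *Fdft1*, *Stard4*, *Abcg1*, *Scd1*, *Scd2* and *Fads1* had no entry in that table. The windows lie at chr13:119690101-119690400 on the plus strand for *Hmgcs1*, at chr13:8885356-8885655 on the plus strand for *Idi1*, at chr5:4104648-4104947 on the minus strand for *Cyp51* and at chr5:28071162-28071461 on the plus strand for *Insig1*, 4 genes whose level was lowest in replicate 3 among the *Nhe6*-knockout cultures and highest in replicate 2 among the wildtype cultures. Those of *Insig2* (chr1:121332540-121332839 on the minus strand, the outermost of 3 starts), *Soat1* (chr1:156474279-156474578 on the minus strand) and *Elovl6* (chr3:129532136-129532435 on the plus strand) belong to the genes that passed the adjusted threshold in at least 1 alternative fit. Each is written 5′ to 3′ in the direction of transcription, with capitals for letters that match 1 of 3 motifs on either strand: the sterol regulatory element TCACNCCAC, the E-box CACGTG and the NF-Y box CCAAT.
Hmgcs1: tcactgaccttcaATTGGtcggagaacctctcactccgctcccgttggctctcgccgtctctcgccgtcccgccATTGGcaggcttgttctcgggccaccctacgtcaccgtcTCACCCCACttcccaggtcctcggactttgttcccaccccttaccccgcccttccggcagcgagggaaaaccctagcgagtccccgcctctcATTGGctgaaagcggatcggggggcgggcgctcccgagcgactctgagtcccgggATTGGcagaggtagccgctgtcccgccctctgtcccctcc
Idi1: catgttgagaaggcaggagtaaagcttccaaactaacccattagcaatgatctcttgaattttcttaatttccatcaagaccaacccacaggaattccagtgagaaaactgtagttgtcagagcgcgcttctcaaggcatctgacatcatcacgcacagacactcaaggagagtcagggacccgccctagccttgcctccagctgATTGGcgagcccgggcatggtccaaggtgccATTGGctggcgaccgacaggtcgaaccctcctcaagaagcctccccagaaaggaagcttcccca
Cyp51: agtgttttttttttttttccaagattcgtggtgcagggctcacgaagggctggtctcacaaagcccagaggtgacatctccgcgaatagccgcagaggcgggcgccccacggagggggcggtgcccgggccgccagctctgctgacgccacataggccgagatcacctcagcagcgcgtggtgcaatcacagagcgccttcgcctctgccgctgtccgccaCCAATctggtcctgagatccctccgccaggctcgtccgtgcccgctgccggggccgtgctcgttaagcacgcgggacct
Insig1: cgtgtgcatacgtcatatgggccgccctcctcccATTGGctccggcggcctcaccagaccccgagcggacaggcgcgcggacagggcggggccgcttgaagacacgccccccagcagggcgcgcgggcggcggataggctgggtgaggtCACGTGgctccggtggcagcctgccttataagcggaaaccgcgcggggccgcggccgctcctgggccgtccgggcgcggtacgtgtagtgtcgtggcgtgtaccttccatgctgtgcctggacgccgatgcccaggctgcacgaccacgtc
Insig2: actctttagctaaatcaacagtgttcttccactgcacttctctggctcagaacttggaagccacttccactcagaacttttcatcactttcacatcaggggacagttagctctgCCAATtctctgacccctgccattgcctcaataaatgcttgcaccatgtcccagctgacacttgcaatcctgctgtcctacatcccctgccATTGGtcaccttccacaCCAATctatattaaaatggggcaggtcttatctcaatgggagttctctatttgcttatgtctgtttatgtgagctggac
Soat1: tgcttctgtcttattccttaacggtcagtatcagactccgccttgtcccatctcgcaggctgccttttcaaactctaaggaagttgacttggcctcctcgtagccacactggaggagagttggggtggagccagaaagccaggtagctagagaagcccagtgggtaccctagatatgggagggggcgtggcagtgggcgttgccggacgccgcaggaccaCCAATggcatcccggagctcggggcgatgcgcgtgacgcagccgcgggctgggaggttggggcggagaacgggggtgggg
Elovl6: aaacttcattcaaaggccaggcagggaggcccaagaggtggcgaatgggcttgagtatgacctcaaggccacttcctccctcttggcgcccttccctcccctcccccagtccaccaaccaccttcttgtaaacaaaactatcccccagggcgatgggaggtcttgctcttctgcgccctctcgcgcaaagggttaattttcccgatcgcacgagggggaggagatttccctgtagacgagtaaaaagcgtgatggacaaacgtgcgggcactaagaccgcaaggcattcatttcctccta

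The letters TCACNCCAC were found in 1 of the 39 windows, that of *Hmgcs1*, with the first letter at position -137 from the start, and in 1.24% of all 32851 RefSeq promoter windows of mouse genes. CCAAT was in 23 of the 39 windows (59.0%), against 37.4% of all windows, which include those of non-coding genes. It was found for 14 of the 15 cholesterol synthesis enzymes with a window, and *Acat2* was the exception. CACGTG was in 7 windows of 6 genes, among them *Insig1*, and in 7.15% of all windows. The element bound by LXR, a direct repeat of AGGTCA spaced by 4 bases, was in none of the 39 windows and in 0.0152% of all. The motifs do not overlap one another in the windows printed, and a match is a run of letters and not evidence of binding.

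Levels between genes were compared as RPKM, the reads per kb of exon scaled to the gene reads of the library, averaged over the 6 cultures. The stearoyl-CoA desaturases place the first double bond in saturated fatty acids. They led with 328 ± 96.3 (SD, n = 6) for *Scd2* and 295 ± 226 for *Scd1*. This SD is over cultures of both genotypes, so that it also holds any genotype difference. *Scd1* was above *Scd2* in *Nhe6*-knockout replicates 1 and 2 and below it in the other cultures. The cholesterol exporter *Abca1* followed at 76.0 ± 19.3, then *Fads1* at 46.0 ± 7.30 and *Acly* at 42.2 ± 6.06. *Fads1* was above *Acly* in every culture but wildtype replicate 2, where it was at 41.6 against 45.6. *Hmgcs1*, which makes HMG-CoA for the mevalonate pathway, was the highest of the cholesterol synthesis enzymes at 32.7 ± 10.8, and *Idi1* was the lowest at 1.54 ± 0.614. The last gene was *Abcg1*, the partner exporter of *Abca1*, at 0.0588 ± 0.0490. It had 72 reads over the 6 libraries.

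**Figure D1:**
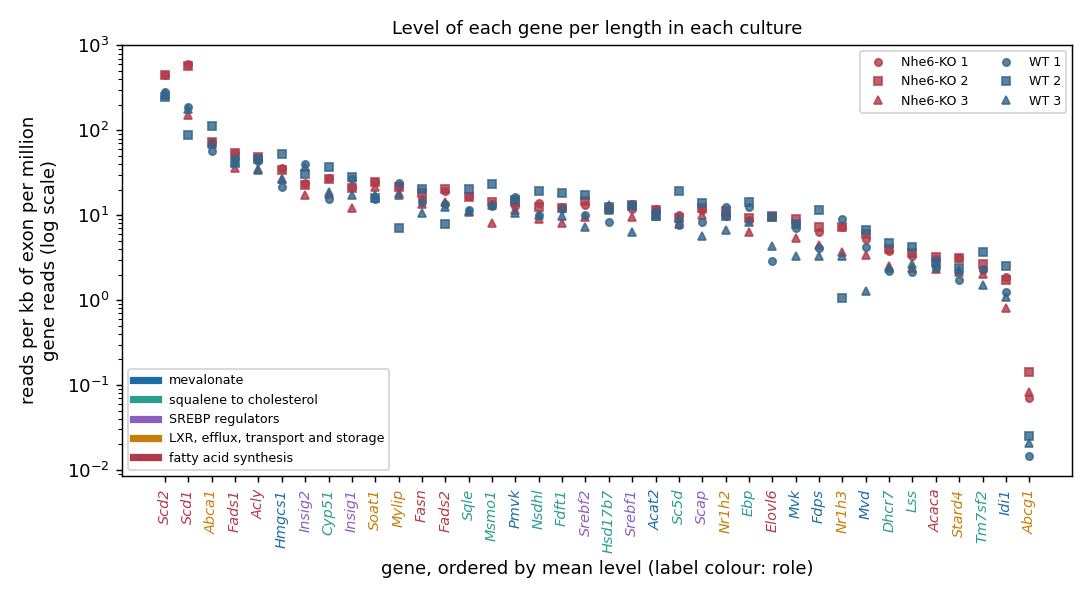
Level of each of the 38 genes in each culture, in RPKM on a log scale, with genes ordered by their mean and label colours for their role. *Scd2* and *Scd1* lie on top with means of 328 and 295, most genes lie between 1 and 100, and *Abcg1* lies far below the rest at 0.0588.

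No gene of the 38 had an adjusted p under 0.05 between *Nhe6*-knockout and wildtype cells in edgeR's quasi-likelihood test, against 0.0668% (9 of 13479) of all genes tested. At an unadjusted p under 0.05 there were 5 genes (13.2%), against 11.8% of all genes. Of these, *Insig2* was lower in *Nhe6*-knockout cells, where 5.71% of all genes were, while *Abcg1*, *Soat1*, *Scd1* and *Fads2* were higher, where 6.14% were. The genotypes did not overlap for 4 genes (10.5%), against 19.9% of all genes. In *Nhe6*-knockout cells, 1 of these was lower (2.63%, against 9.54% of all genes) and 3 were higher (7.89%, against 10.4% of all genes). The log2 fold change was above 0 for 21 of the 38 (55.3%, against 48.1% of all genes), with a median of 0.034 over the 38 genes and -0.016 over all genes tested. The shares at an unadjusted p under 0.05 in either direction and with a log2 fold change above 0 are near those of all genes. The share without overlap is below that of all genes. These rest on few genes and are not a result about the list. DESeq2's Wald test called 2 of the 38 (5.26%, against 4.69% of all genes), *Insig2* as lower (1.83% of all genes) and *Soat1* as higher (2.85%). Without wildtype replicate 2, 30 of the 38 lay above 0 (78.9%, against 50.1% of all genes), and the genes of a pathway are not independent of each other.

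**Figure D2:**
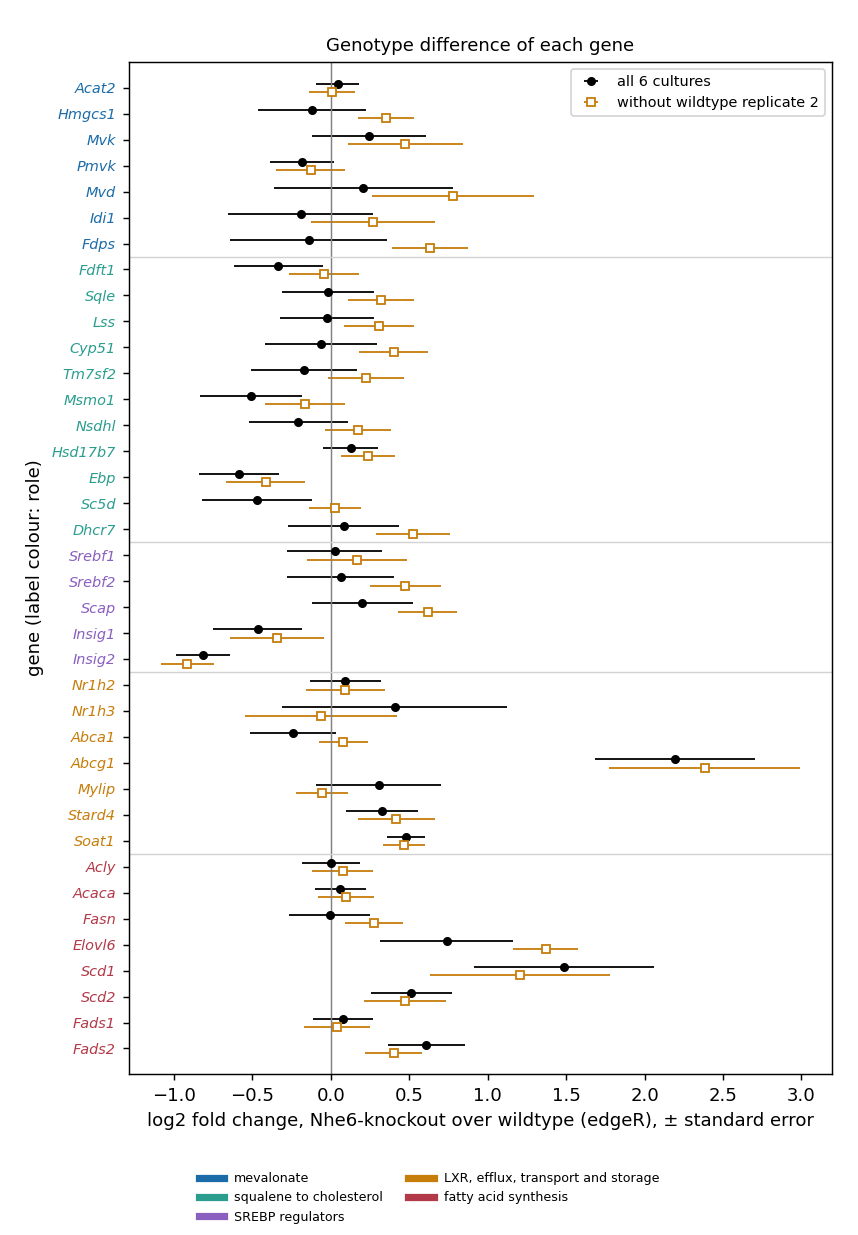
Log2 fold change of each gene, *Nhe6*-knockout over wildtype, with its standard error, for all 6 cultures (filled circles) and without wildtype replicate 2 (open squares). Most intervals of the cholesterol synthesis enzymes cross 0 in the fit of all cultures, *Insig2* lies at -0.81, and *Soat1* and *Abcg1* lie at 0.48 and 2.20.

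The enzymes of cholesterol synthesis were spread more widely among the wildtype than among the *Nhe6*-knockout cultures, with *Acat2* as the exception. Pairs of wildtype cultures were also farther apart over all genes. Their chi-square per degree of freedom was 144 to 421, against 5.04 to 101 for *Nhe6*-knockout pairs. A wider wildtype spread was thus also seen over the genes pooled, although a few abundant genes can carry that measure. The share of all genes with a wider wildtype spread was not computed. *Hmgcs1* had 4445, 4192 and 3315 normalized counts in *Nhe6*-knockout and 2771, 6753 and 3451 in wildtype cultures. Wildtype replicate 2 was the highest and wildtype replicate 1 the lowest of the 6, so that the genotypes overlapped. The log2 fold change was -0.12 ± 0.34 (SE), with an adjusted p of 0.929 in edgeR's test. *Sqle*, squalene epoxidase, a rate-limiting step after mevalonate, had 2568, 2446 and 1633 in *Nhe6*-knockout and 1799, 3189.9 and 1741 in wildtype cultures. Here, too, the top culture was wildtype replicate 2, and *Nhe6*-knockout replicate 3 was at the bottom. For *Sqle* the log2 fold change was -0.018 ± 0.30 (SE) (adjusted p = 0.985).

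The same order of cultures was seen along the pathway. Wildtype replicate 2 was the highest of the 6 cultures for 14 of the 18 enzymes (77.8%), while it was the highest for 26.7% of all genes tested. It was above both other wildtype cultures for 16 of the 18 (88.9%, against 36.8% of all genes), and for each of the 11 enzymes from squalene on. *Nhe6*-knockout replicate 3 was below the other 2 *Nhe6*-knockout cultures for 17 of the 18 enzymes and for 35 of the 38 genes (92.1%), against 43.1% of all genes. The exceptions were *Hsd17b7* among the enzymes, and *Nr1h2* and *Abcg1*. Summed over the 18 enzymes, the level per length was 206, 206 and 151 in *Nhe6*-knockout and 163, 283 and 155 in wildtype cultures. The 5 cultures other than wildtype replicate 2 spanned 151 to 206, and the genotypes overlapped in that range as well.

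The size of the excess in wildtype replicate 2 differed along the pathway. *Fdps*, farnesyl diphosphate synthase at the branch to isoprenoids, was at 3.14 times the mean of the other 2 wildtype cultures. *Mvd*, the decarboxylase of mevalonate diphosphate, was at 2.47 times that mean, *Sc5d*, a sterol desaturase, at 2.25, *Cyp51*, the lanosterol demethylase, at 2.15, and *Idi1*, the isopentenyl diphosphate isomerase, at 2.15. The kinase *Pmvk* was at 1.13, and *Acat2*, the thiolase that joins 2 acetyl-CoA, was at 0.934 and was the steadiest enzyme of the pathway. In that culture the fibroblast, mural and endothelial markers did not move one way within their lists. Of the 8 fibroblast markers, 2 were at their highest of the 6 cultures there and 5 at their lowest, although their sum, carried by collagen genes, was 284719 against 175786 to 255540 in the other cultures. Of the 8 mural markers, 2 were at their highest there and 4 at their lowest, with a sum of 28511, most of it *Acta2*, against 15504 to 20679. Of the 8 endothelial markers tested, 6 were at their highest there, among them *Cdh5* at 5197 normalized counts where wildtype replicates 1 and 3 had 2509.8 and 3470.4, and 2 at their lowest, among them *Emcn*, an endothelial sialomucin, at 409 against 13414 and 14733. No fibroblast or mural marker was at 0 in every culture, and of the 13 endothelial markers only *Cldn5* was. The 6 macrophage, 3 melanocyte and 4 epithelial markers tested were all at their lowest in wildtype replicate 2. Of the 4 glial markers tested, 1 was at its highest there and 1 at its lowest. The part of cell makeup in the level of the enzymes was not tested.

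**Figure D3:**
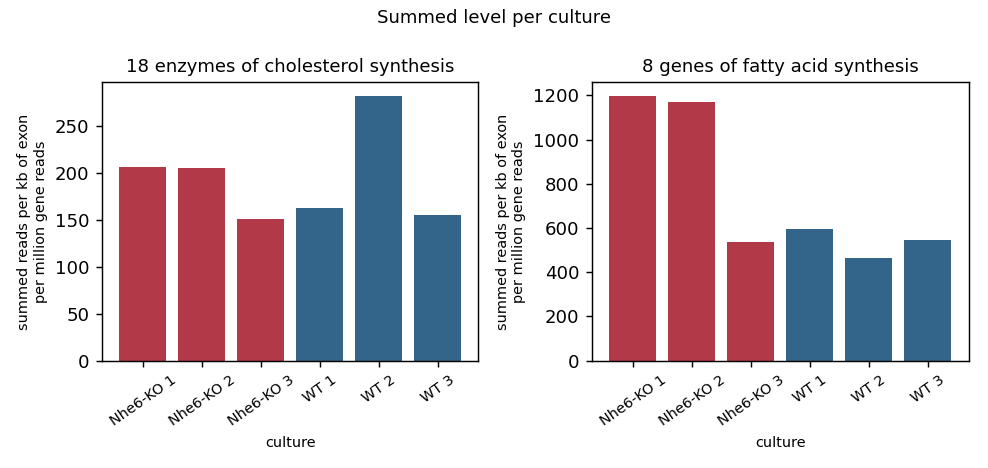
Summed level per culture of the 18 enzymes of cholesterol synthesis (left) and of the 8 genes of fatty acid synthesis (right), in RPKM. On the left wildtype replicate 2 is the highest bar at 283 and the others lie at 151 to 206, and on the right *Nhe6*-knockout replicates 1 and 2 stand at 1199 and 1170 while the other 4 cultures lie at 465 to 597.

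Of the 18 enzymes, 13 had a log2 fold change below 0 in the fit of all cultures, with a median of -0.13. None had an unadjusted p under 0.05. The lowest were *Ebp*, the sterol isomerase, at -0.59 ± 0.26 (SE) with an unadjusted p of 0.0609 in edgeR's test, *Msmo1*, the methylsterol oxidase, at -0.51, *Sc5d* at -0.47 and *Fdft1*, squalene synthase, at -0.34. The highest were *Mvk*, mevalonate kinase, at 0.24, *Mvd* at 0.21 and *Hsd17b7*, a sterol ketone reductase, at 0.13. Without wildtype replicate 2, the values were -0.16 for *Msmo1*, 0.025 for *Sc5d* and -0.045 for *Fdft1*. Adjusted p-values in edgeR's test with all cultures ran from 0.445 to 0.985 over the 18. In the fit without that culture, 14 of the 18 lay above 0, the median was 0.25 and again no enzyme passed the adjusted threshold. The lowest adjusted p of that fit belonged to *Fdps* (0.232), with a log2 fold change of 0.63. The sign of the median over the pathway thus turned when 1 wildtype culture was left out.

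*Ebp* had 558, 583 and 390.1 normalized counts in *Nhe6*-knockout and 809.9, 939 and 547 in wildtype cultures. Its wildtype replicate 3 lay among the *Nhe6*-knockout cultures, and its log2 fold change remained below 0 without wildtype replicate 2 (-0.42, adjusted p = 0.422 in edgeR's test). The remaining enzymes were close to 0, with log2 fold changes of -0.022 for *Lss*, lanosterol synthase, -0.063 for *Cyp51*, -0.17 for *Tm7sf2*, a sterol reductase, -0.21 for *Nsdhl*, a sterol dehydrogenase, and 0.082 for *Dhcr7*, dehydrocholesterol reductase. In the mevalonate pathway they were 0.045 for *Acat2*, -0.18 for *Pmvk*, -0.19 for *Idi1* and -0.14 for *Fdps*. Standard errors of these 9 genes were between 0.14 and 0.50. *Fdft1* shares 18.3% of its exon bases with *Ctsb* on the other strand and *Tm7sf2* shares 12.1% with *Vps51* on its own strand, so that their counts are less certain. *Fdps* shares 26.7% with the predicted gene *Gm43738* on its own strand. *Gm43738* has no row in the count table, so that any reads of it in the shared bases may count as *Fdps*. *Hmgcs1* (12.1%) and *Scap* (13.2%) overlap genes on the other strand that have no row either.

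**Figure D4:**
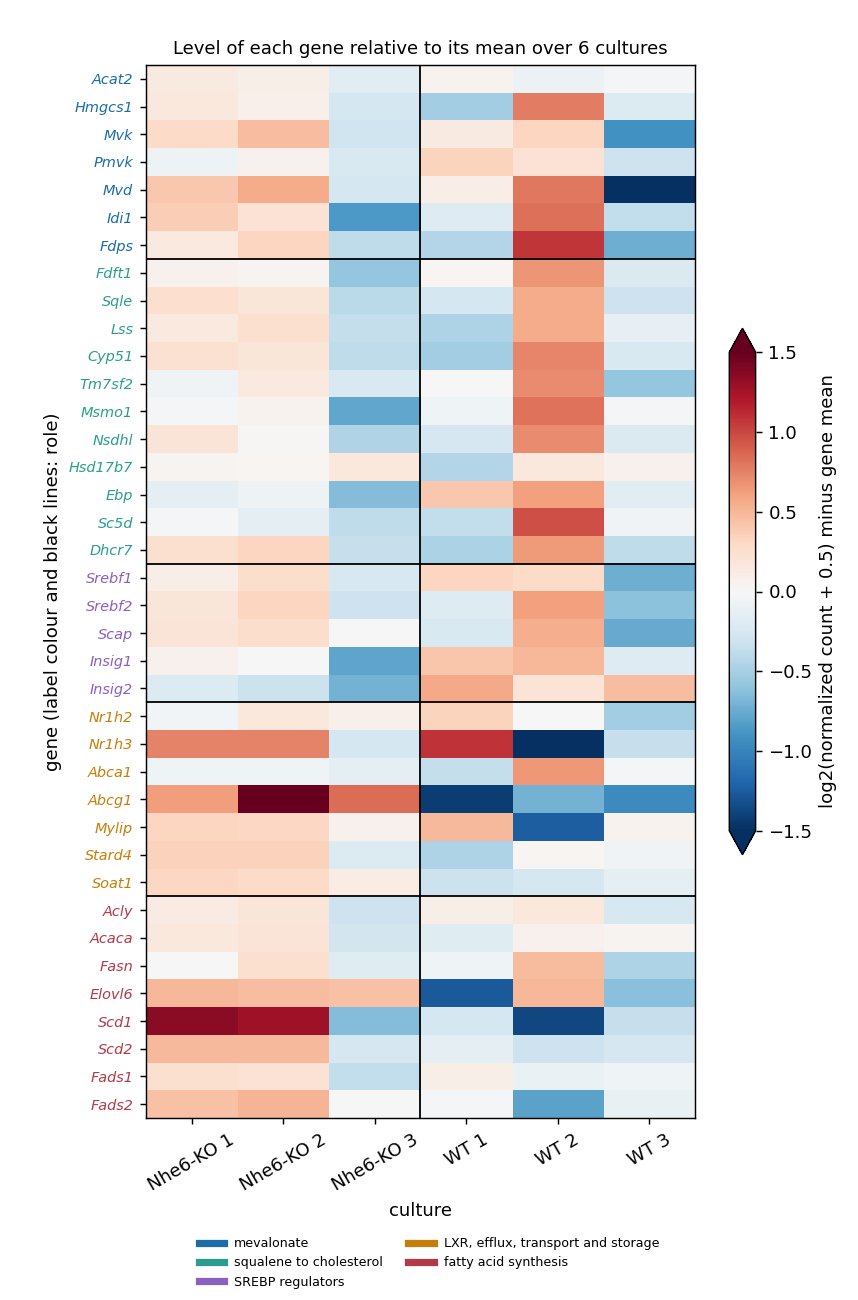
Each gene's level in each culture relative to its own mean, as log2 of the normalized count plus 0.5 minus the gene's mean over the 6 cultures, with the colour scale ending 1.5 on either side of 0. Wildtype replicate 2 is red for nearly all cholesterol synthesis enzymes, *Nhe6*-knockout replicate 3 is paler or bluer than replicates 1 and 2 for 35 of 38 genes, and *Insig2* is blue in each *Nhe6*-knockout culture.

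Among the regulators, *Srebf2*, which encodes SREBP-2, had 2588, 2866 and 1851 normalized counts in *Nhe6*-knockout and 2003, 3502 and 1489 in wildtype cultures. Both ends of that range were wildtype cultures, replicate 2 at the top and replicate 3 at the bottom. Its log2 fold change was 0.062 ± 0.34 (SE) (adjusted p = 0.961 in edgeR's test). *Srebf1*, the gene of SREBP-1, had 1813, 2036 and 1431 in *Nhe6*-knockout and 2107, 2068 and 1018 in wildtype cultures, with only wildtype replicate 3 apart, and a log2 fold change of 0.024 ± 0.30 (SE). *Scap*, the escort of both factors, had a log2 fold change of 0.20 ± 0.32 (SE) with all cultures and 0.62 (adjusted p = 0.149) without wildtype replicate 2.

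The INSIG genes were the regulators with the lowest values in *Nhe6*-knockout cells. *Insig2* had 2281, 2109.9 and 1606 normalized counts in the *Nhe6*-knockout cultures and 3889, 3035 and 3622 in the wildtype cultures, or 1999 ± 351 (SD, n = 3) against 3515 ± 437 (SD, n = 3). Each *Nhe6*-knockout culture was below each wildtype culture. The log2 fold change was -0.81 ± 0.17 (SE), the unadjusted p 0.00293 and the adjusted p 0.136 in edgeR's test, while DESeq2's adjusted p was 0.00449. An exact permutation test of the 6 values was run only for the 4 genes whose genotypes did not overlap. Its p was therefore fixed in advance at 0.1 (two-sided), the smallest that 3 against 3 allows, and adds nothing to the lack of overlap. The distance of *Insig2* did not rest on wildtype replicate 2, since without it the value was -0.92 with an adjusted p of 0.0521 in edgeR's test. With the close *Nhe6*-knockout replicates 1 and 2 summed as 1 library, the value was -0.89 (unadjusted p = 0.00724, adjusted p = 0.466 in edgeR's test). Over all 14 alternatives the log2 fold change of *Insig2* stayed between -0.92 and -0.69.

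*Insig1*, itself a target of SREBP-2, had 1824, 1736 and 1009 in *Nhe6*-knockout and 2329.8, 2458 and 1524 in wildtype cultures. *Nhe6*-knockout replicate 3 was the lowest culture, wildtype replicate 3 lay under the other 2 *Nhe6*-knockout cultures, and the genotypes overlapped. Its log2 fold change was -0.47 ± 0.28 (SE) (adjusted p = 0.589 in edgeR's test). The ratio of *Insig1* to *Insig2* in normalized counts was 0.800, 0.823 and 0.629 in *Nhe6*-knockout and 0.599, 0.810 and 0.421 in wildtype cultures, so that the ratio overlapped as well. The windows printed above differ in that *Insig1* holds an E-box and 1 CCAAT and the outermost *Insig2* start holds 3 CCAAT and no E-box, while neither of the other *Insig2* windows holds a match to any motif.

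*Soat1* was the gene of sterol storage. It had 6563, 6469 and 5706 normalized counts in *Nhe6*-knockout and 4224, 4451 and 4767 in wildtype cultures, or 6246 ± 470.0 (SD, n = 3) against 4481 ± 273 (SD, n = 3). The groups did not overlap, and the range within either genotype was smaller than the gap between the means. The log2 fold change was 0.48 ± 0.12 (SE), with an unadjusted p of 0.00694 and an adjusted p of 0.199 in edgeR's test and an adjusted p of 0.0145 in DESeq2's. Over all alternatives it stayed between 0.43 and 0.53, the narrowest range among the genes with an unadjusted p under 0.05. With *Nhe6*-knockout replicates 1 and 2 summed as 1 library, it was 0.45 (unadjusted p = 0.0382, adjusted p = 0.759 in edgeR's test). The exact permutation p was 0.1 (two-sided), which the lack of overlap fixed here as well.

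*Abca1*, the more abundant exporter, had 20337, 20371 and 19129.9 normalized counts in *Nhe6*-knockout and 16601, 33247 and 20981 in wildtype cultures. The 3 *Nhe6*-knockout cultures were alike and wildtype replicate 2 was again the highest, and the log2 fold change was -0.24 ± 0.27 (SE) (adjusted p = 0.790 in edgeR's test). *Abcg1* had 13.8, 27.9 and 16.1 in *Nhe6*-knockout and 2.93, 5.16 and 4.28 in wildtype cultures. All 3 *Nhe6*-knockout values were above all 3 wildtype values, but they rest on 60 and 12 reads in all. Its log2 fold change was 2.20 ± 0.51 (SE), with an adjusted p of 0.161 in edgeR's test and 0.103 in DESeq2's. The exact permutation p of 0.1 was again fixed by the lack of overlap.

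The LXR genes and the other sterol handling genes overlapped between the genotypes. *Nr1h3*, which encodes LXRα, had 496, 497 and 246 normalized counts in *Nhe6*-knockout and 626, 75.3 and 233 in wildtype cultures, with wildtype replicate 2 far below all other cultures. Its log2 fold change was 0.41 ± 0.72 (SE) with all cultures and -0.062 without that culture. The 8 macrophage markers summed to 114 in wildtype replicate 2, against 533 to 1344 in the other cultures, with none at 0 in every culture, and their part in the *Nr1h3* level was not tested. *Mylip*, a ubiquitin ligase induced by LXR, was at 652 normalized counts in the same culture and 1597 to 2141 in the other cultures (log2 fold change 0.30 ± 0.40 (SE)). *Nr1h2*, which encodes LXRβ, had a log2 fold change of 0.091 ± 0.23 (SE), and *Stard4*, a sterol transfer protein, one of 0.33 ± 0.23 (SE).

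The summed level of fatty acid synthesis differed from that of cholesterol synthesis in which cultures were high. Summed over its 8 genes, the level per length was 1199, 1170 and 534 in *Nhe6*-knockout and 597, 465 and 544 in wildtype cultures. *Nhe6*-knockout replicates 1 and 2 were well above every other culture, while replicate 3 lay within the wildtype range, and wildtype replicate 2 was the lowest. Most of that sum was *Scd1* and *Scd2*, so that it does not give the order of cultures for each gene. In normalized counts, 3 of the 8 genes were highest in *Nhe6*-knockout replicate 1 and 3 in replicate 2. The other 2, *Fasn* and *Elovl6*, were highest in wildtype replicate 2. That culture was above both other wildtype cultures for 4 of the 8. The early steps were close to 0, with log2 fold changes of 0.0019 ± 0.19 (SE) for *Acly*, which makes cytosolic acetyl-CoA, 0.061 ± 0.16 (SE) for *Acaca*, acetyl-CoA carboxylase, and -0.0057 ± 0.26 (SE) for *Fasn*, fatty acid synthase. *Fasn* had 4567, 5397 and 4014 normalized counts in *Nhe6*-knockout and 4361, 6351 and 3317 in wildtype cultures, with wildtype replicate 2 the highest and replicate 3 the lowest.

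*Scd1* had 79696, 74850.2 and 19848 normalized counts in *Nhe6*-knockout and 25833, 12075 and 24355 in wildtype cultures. *Nhe6*-knockout replicates 1 and 2 were about alike and far above the rest, and replicate 3 was below wildtype replicates 1 and 3, so that the groups overlapped. Its log2 fold change was 1.49 ± 0.57 (SE), with an unadjusted p of 0.0388 and an adjusted p of 0.387 in edgeR's test. *Scd2* had 67053, 66766 and 40008 in *Nhe6*-knockout and 43118, 38512 and 40120.5 in wildtype cultures. It had the same high cultures over a smaller range, and a log2 fold change of 0.51 ± 0.26 (SE) (adjusted p = 0.496 in edgeR's test). Per length, *Scd1* was at 1.33, 1.25 and 0.554 times *Scd2* in *Nhe6*-knockout and 0.669, 0.350 and 0.678 times in wildtype cultures, so that the order of the pair changed between cultures of one genotype. Any reads which fit both genes can be lost from their counts, and how many were lost was not measured. The count table has a summary line for reads with more than 1 placement.

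With *Nhe6*-knockout replicates 1 and 2 summed as 1 library, since they were the closest pair, *Scd1* had a log2 fold change of 1.22 with an unadjusted p of 0.109 in edgeR's test, and without wildtype replicate 2 it had 1.21 with an unadjusted p of 0.0804. The sum of the 10 cell cycle markers was higher in all 3 *Nhe6*-knockout cultures, at 12638, 12580 and 7120 normalized counts in *Nhe6*-knockout and 2960, 3418 and 2257 in wildtype cultures. Replicate 3 was thus above the wildtype cultures in this sum and not in *Scd1*. All 10 were measured with none at 0, and 8 of them were higher in *Nhe6*-knockout cells without overlap, against 10.4% of all genes. The adipocyte markers *Plin1*, *Lep* and *Cidec* had 0 reads in each culture, and the 6 adipocyte markers together reached 10.4 to 36.2 in *Nhe6*-knockout and 9.63 to 29.9 in wildtype cultures. The part of cell division in the desaturase levels was not tested.

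*Elovl6*, which lengthens palmitate to stearate, the substrate of the desaturases, had 1731, 1693 and 1664 normalized counts in *Nhe6*-knockout and 513, 1743 and 794 in wildtype cultures. The *Nhe6*-knockout cultures were nearly equal, wildtype replicates 1 and 3 were well below them, and wildtype replicate 2 was level with the *Nhe6*-knockout cultures. With all cultures the log2 fold change was 0.74 ± 0.43 (SE) (adjusted p = 0.562 in edgeR's test). Without wildtype replicate 2 it was 1.37, with an adjusted p of 0.0347, and *Elovl6* was the only gene of the 38 past the threshold in that fit, where 2.88% of all genes passed it, 1.62% as higher. *Elovl6* had nearly the same level in *Nhe6*-knockout replicate 3 as in replicates 1 and 2, where *Scd1* did not.

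**Figure D5:**
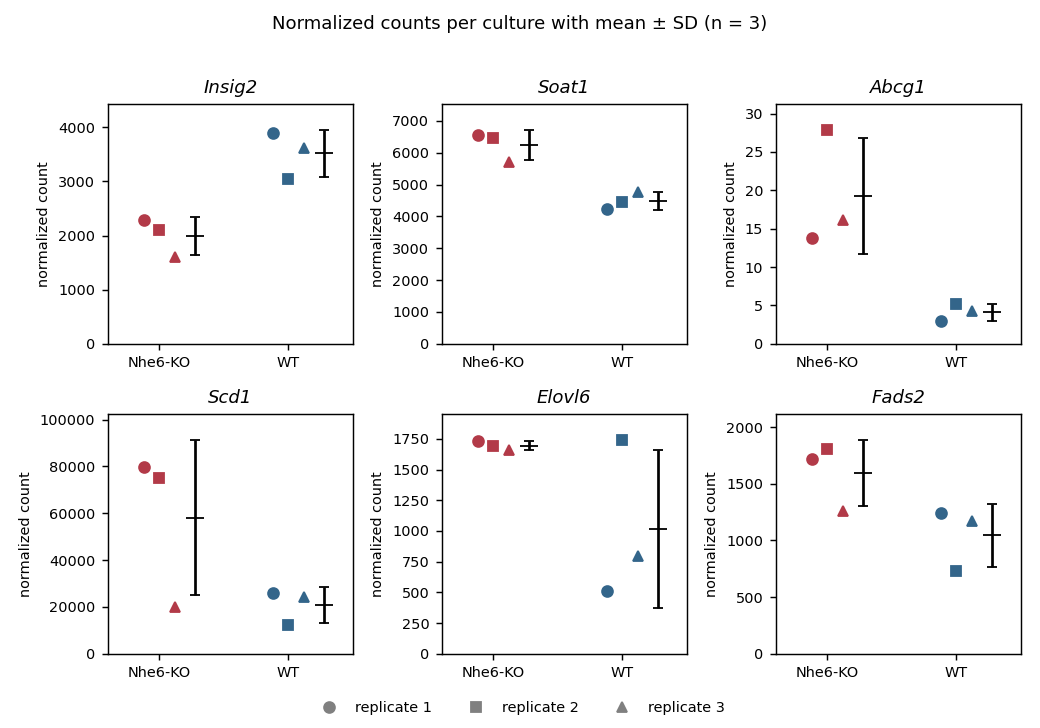
Normalized counts of 6 genes in each culture (circle, replicate 1; square, replicate 2; triangle, replicate 3) with the mean and SD of 3 cultures per genotype. *Insig2* and *Soat1* separate the genotypes, *Abcg1* does so at under 30 counts, *Fads2* does so by a narrow gap, and *Scd1* and *Elovl6* each have 1 culture on the side of the other genotype.

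The desaturases of polyunsaturated fatty acids were the last members. *Fads2* had 1715, 1811 and 1264 normalized counts in *Nhe6*-knockout and 1240.2, 728 and 1171 in wildtype cultures. The genotypes did not overlap, although *Nhe6*-knockout replicate 3 and wildtype replicate 1 were nearly level. Its log2 fold change was 0.61 ± 0.25 (SE), with an unadjusted p of 0.0455 and an adjusted p of 0.416 in edgeR's test. The exact permutation p of 0.1 was fixed by the lack of overlap. In edgeR's test the result depended on the cultures used. The unadjusted p was 0.0672 without wildtype replicate 2, where the log2 fold change was 0.40, and 0.125 with *Nhe6*-knockout replicates 1 and 2 summed. *Fads1*, its neighbour in the pathway, had a log2 fold change of 0.080 ± 0.19 (SE) (adjusted p = 0.910) with overlapping groups.

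The other genes of these pathways gave the same picture at the adjusted threshold. Of 29 other sterol pathway genes, 25 were tested and none had an adjusted or an unadjusted p under 0.05 in edgeR's test, with 8 above and 17 below 0 and a median log2 fold change of -0.14. *Gramd1b*, a carrier of plasma membrane cholesterol, had a log2 fold change of 0.94 ± 0.41 (SE), followed by *Osbpl2* at -0.31 ± 0.16 (SE) and *Osbp*, an oxysterol binding protein, at -0.20 ± 0.11 (SE). Of 43 other genes of fatty acid and glycerolipid synthesis, 36 were tested, none had an adjusted p under 0.05, and 3 (8.33%) had an unadjusted p under 0.05. These were *Acacb*, the mitochondrial acetyl-CoA carboxylase, at 1.05 ± 0.34 (SE), *Elovl7*, a fatty acid elongase, at -1.03 ± 0.39 (SE), and *Oxsm*, of mitochondrial fatty acid synthesis, at -0.34 ± 0.13 (SE). DESeq2's Wald test called none of either list.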

How the data were processed

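Stranded poly(A) libraries of 3 *Nhe6*-knockout and 3 wildtype cultures, 1 each, were sequenced with 75-cycle kits. The submitters' processing notes name bcl2fastq 2.20.0.422, STAR 2.7.7a, HTSeq 0.13.5, DESeq2 1.26.0 and mm10, without their roles. The annotation and the strand setting are not given in the sources used here. The authors deposited raw read counts per gene symbol, with 5 summary lines (22.2% of reads) that were kept out of library sizes. Every column was mapped to a culture by genotype and replicate number.

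Genes were filtered with filterByExpr (minimum count 10), scaled with TMM (factors 0.976 to 1.03) and compared with edgeR 4.0.16 (quasi-likelihood test, two-sided, genotype alone, all 6 libraries) in R 4.3.3. Benjamini-Hochberg adjustment ran over all 13479 genes tested, with a threshold of 0.05. The standard error is the log2 fold change divided by the root of F. Exon lengths and positions came from GENCODE on GRCm38, and 38 of 38 genes matched. The alternatives were other normalizations, other filters, DESeq2 1.42.0, limma-voom (limma 3.58.1), a block for the replicate number, and each culture left out. The sum of *Nhe6*-knockout replicates 1 and 2 was added after seeing the data. The tests were tried on simulated counts. Each library held 25587097 to 29126232 gene reads, a depth at which counting error is small beside the values of all members but *Abcg1*.

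Members, lists and tests were chosen with earlier results of these data known. Any member could be named, and of each list of other lipid genes up to 5 with the lowest unadjusted p. Of the listed genes, Erg28, Gpat3 and Gpat4 were not analysed here, and the targeted gene and some listed genes are not reported here. Leaving out a culture leaves 2 in its group.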

Additional observations from a re-analysis of the deposited data

How the results depend on the processing

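Over 14 alternatives, 13 of the 38 genes kept the sign of their log2 fold change and 25 changed it at least once. *Insig2* and *Soat1* passed the threshold with DESeq2, and *Elovl6* did so without wildtype replicate 2. All genes past the threshold numbered 9, and 21 without a filter, 21 with at least 10 counts in every library (where *Abcg1* was not tested), 627 with DESeq2, 1 with *Nhe6*-knockout replicates 1 and 2 summed, and 0 to 395 with each culture left out, where 395 was without wildtype replicate 2 and 0 to 4 the rest. The members past it numbered 0, and 2 with DESeq2 and 0 to 1 with each culture left out. Members with an unadjusted p under 0.05 numbered 5, and 3 with the sum and 3 to 6 with each culture left out (3 without *Nhe6*-knockout replicate 1 or 2). Other lipid genes past the threshold numbered 0, and 1 with DESeq2 and 0 to 1 with each culture left out. The median log2 fold change of the members ran from -0.15 to 0.25 with each culture left out.

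With a replicate block, 2 genes passed the threshold and no member, and the median of the members was 0.0533. Deviations of same-numbered cultures correlated at 0.21, -0.19 and 0.11, so that the numbers were not taken as pairs. Signs that turned under the block were *Fdps* (0.0624), *Sqle* (0.0116), *Lss* (0.0149), *Cyp51* (0.0132), *Acly* (-0.0037) and *Fasn* (0.0352).

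With limma-voom, values were *Fdps* 0.0588, *Sqle* 0.0121, *Lss* 0.0185, *Cyp51* 0.0163, *Acly* -0.0020 and *Fasn* 0.0356. With upper-quartile scaling, *Sqle* was 0.0206, *Lss* 0.0168 and *Fasn* 0.0320. *Acly* was -0.0011 with DESeq2's size factors or test and -0.0118 without a filter, and *Fasn* 0.0006 with at least 10 counts. With the sum, *Acat2* was -0.0019, *Dhcr7* -0.0163, *Srebf1* -0.0436, *Srebf2* -0.0256, *Acly* -0.0725, *Acaca* -0.0121 and *Fads1* -0.0163. With each culture left out, log2 fold changes ran from -0.015 to 0.12 for *Acat2*, -0.36 to 0.35 for *Hmgcs1*, -0.055 to 0.47 for *Mvk*, -0.22 to 0.78 for *Mvd*, -0.42 to 0.27 for *Idi1*, -0.46 to 0.63 for *Fdps*, -0.18 to 0.32 for *Sqle*, -0.23 to 0.31 for *Lss*, -0.30 to 0.40 for *Cyp51*, -0.44 to 0.22 for *Tm7sf2*, -0.38 to 0.17 for *Nsdhl*, -0.041 to 0.24 for *Hsd17b7*, -0.72 to 0.025 for *Sc5d*, -0.12 to 0.52 for *Dhcr7*, -0.25 to 0.18 for *Srebf1*, -0.18 to 0.47 for *Srebf2*, -0.062 to 0.62 for *Scap*, -0.11 to 0.31 for *Nr1h2*, -0.062 to 1.41 for *Nr1h3*, -0.45 to 0.080 for *Abca1*, -0.053 to 0.68 for *Mylip*, -0.12 to 0.13 for *Acly*, -0.023 to 0.19 for *Acaca*, -0.21 to 0.27 for *Fasn* and -0.025 to 0.25 for *Fads1*. The cause of these turns was not tested.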

Other observations

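Genes of fatty acid oxidation are the opposite arm of fatty acid metabolism. Of 18 genes, 17 were tested, 2 had an unadjusted p under 0.05, none passed edgeR's adjusted threshold, and the median log2 fold change was -0.0090, with 8 above and 9 below 0. *Pparg*, a nuclear receptor for fatty acids and a regulator of lipid storage, had 479, 433 and 345 normalized counts in *Nhe6*-knockout and 126, 21.7 and 158 in wildtype cultures. The genotypes did not overlap, and wildtype replicate 2 was the lowest. The log2 fold change was 2.04 ± 0.65 (SE), with an unadjusted p of 0.0187 and an adjusted p of 0.297 in edgeR's test, an adjusted p of 0.0331 in DESeq2's, and 0.0346 in edgeR's without wildtype replicate 2. *Etfb*, an electron transfer flavoprotein subunit, was at 0.49 ± 0.19 (SE) with an unadjusted p of 0.0405. Chosen after their values were seen, since their genotypes did not overlap either, *Cpt1a*, which admits fatty acids to mitochondria, was at -0.19 ± 0.11 (SE) and *Acadl*, an acyl-CoA dehydrogenase, at -0.14 ± 0.10 (SE).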
